A study of Mus musculus with 24 samples.

Results

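When CTCF tagged for degradation was removed from mouse embryonic stem cells, a line that also overexpressed wild-type CTCF was set against a control line under the same treatment. The comparison rests on 4 ATAC-seq libraries of 24 in the series, 2 from each line. Across 189917 sites called open in at least 1 of the 4 libraries, 8693 were gained in the wild-type line and 3065 were lost. A site was gained when both wild-type libraries and neither control library had a peak there, and lost in the reverse case. The CTCF motif lay in 19.9% of the gained sites and in 1.63% of the lost sites.

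All cells were of the E14 line, an established line of mouse embryonic stem cells, and carried CTCF fused to an auxin-inducible degron (AID). In both groups the labels give 12 h of IAA, an auxin that leads to breakdown of the degron fusion. The wild-type group overexpressed wild-type CTCF and the control group carried what the labels call an overexpressed control, without naming its construct. The growth protocol names a serum-free medium with leukemia inhibitory factor, PD0325901 and CHIR99021. Further groups serve below as lists that the definition of gained and lost sites did not use: the control line without IAA, a line overexpressing mutated CTCF with IAA, and cells labelled serum with 0 h or 12 h of the auxin. The growth protocol gives serum-free medium for the serum libraries too, and their name here follows the treatment label. The other 20 libraries counted below are these 8 and 12 libraries of untreated degron cells with hairpins, 6 in a Chd4 set and 6 in a Chd8 set, each set with the hairpin shluci and the hairpins shRNA1 and shRNA2; Chd4 and Chd8 are chromatin remodeller genes. What the mutation changes, the promoter that drives overexpression, the IAA concentration and whether a line is 1 clone are not given in the sources used here. The labels do not say that the 2 libraries of a group came from separate cultures, so p-values speak only for these libraries and not for variation between cultures. No library of the wild-type line without IAA was analysed here, so a difference between the lines and an effect of CTCF under depletion cannot be told apart.

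CTCF is a zinc finger protein that binds a long DNA motif, blocks enhancers at insulators and halts the loop-extruding cohesin complex, which sets the borders of topological domains. Its zinc fingers recognise a core motif whose bound sites lie in open chromatin flanked by phased nucleosomes. ATAC-seq reads out such openness, because the Tn5 transposase cuts and tags DNA where nucleosomes leave it free. A motif match is a description of letters and does not by itself show that CTCF was bound.

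The sequences below show the motif in its setting at the 3 strongest gained motif sites and the 2 strongest lost ones. They are RefSeq sequence of GRCm38 (mm10), not reads from these cells, and each runs 5′ to 3′ on the strand of the motif. Capitals mark the 14 bases matched to the CTCF core consensus, in each of these with 1 mismatch.
Site near Alg14, gained, chr3:121320946-121321039, plus strand: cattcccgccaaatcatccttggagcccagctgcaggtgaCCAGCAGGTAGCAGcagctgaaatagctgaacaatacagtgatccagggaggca
Site near Olfr649, gained, chr7:104199950-104200043, plus strand: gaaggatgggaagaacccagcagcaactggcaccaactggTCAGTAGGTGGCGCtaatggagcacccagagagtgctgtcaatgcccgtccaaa
Site near Ppp6c, gained, chr2:39373275-39373368, minus strand: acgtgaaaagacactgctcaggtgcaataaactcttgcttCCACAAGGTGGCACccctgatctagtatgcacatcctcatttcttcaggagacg
Site near Dap, lost, chr15:31309660-31309753, plus strand: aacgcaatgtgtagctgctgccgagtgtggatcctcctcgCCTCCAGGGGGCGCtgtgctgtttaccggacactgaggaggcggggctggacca
Site near 2900026A02Rik, lost, chr5:113181756-113181849, minus strand: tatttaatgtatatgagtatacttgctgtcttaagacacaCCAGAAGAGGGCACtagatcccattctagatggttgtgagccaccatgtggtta

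The site near Alg14, which encodes a subunit of an enzyme of N-glycan assembly, lay in an intron of the annotation at chr3:121320873-121321373. Its peak stood at percentile 92.1 and 94.9 of the wild-type lists, ranked by the deposited −log10 p. Of the other 20 libraries of the series, 4 called it, and these were both libraries of the untreated control line and both of the mutated line. The site near Olfr649, an olfactory receptor gene, was intergenic at chr7:104199778-104200278, stood at percentile 84.9 and 84.3, and was called by 17 of the other 20 libraries. The site named by Ppp6c, the catalytic subunit gene of a protein phosphatase, was intergenic at chr2:39373036-39373536, 147 kb from the start of that gene. It had percentiles 84.0 and 83.8 and calls in 15 of the other 20. Both were thus called by most of the other 20 libraries, which include the 12 hairpin libraries, and both control libraries under IAA lacked a peak there. The lost site near Dap, in an intron at chr15:31309533-31310033, reached percentile 63.3 and 69.1 of the control lists, below the 3 gained sites. It too was called by most of the other 20 libraries, 13 of them, including both untreated control and both mutated libraries.

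The checks of the labels and lists concern all results. Peaks on coding exons of Ctcf more than 1000 bp from its starts numbered 3 and 2 in the wild-type libraries, 2 and 2 in the mutated line and 0 in each of the 4 control-line libraries, and 3 of the other 16 libraries had 1. Promoters of all 10 stem cell markers, Pou5f1, Sox2 and Nanog among them, held a peak in each of the 4 libraries. Markers of other cell types were mostly open too, with 3 to 5 of 5 promoters per type and library, so open promoters do not tell these types apart. The lists held 155087 and 131432 peaks in the wild-type line and 120137 and 128794 in the control line. Median peak widths were 283 and 393 bp in the wild-type line and 456 and 364 bp in the control line, so the narrower lists were replicate 1 of the wild-type line and replicate 2 of the control line. The read depth is unknown from these lists, and a missing peak is a value below a list's limit, not an absence of open chromatin.

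Gained sites made up 4.58% of all sites and lost sites 1.61%. The surplus of gains moved with list length. With the 4 lists cut to 120137 peaks each by −log10 p, 5363 sites were gained (3.16% of 169720) and 5212 lost (3.07%). Of the gained sites 5034 (57.9%) were also gained at equal length, and of the lost sites 2376 (77.5%) were also lost. The 2 wild-type replicates differed in their calls at 53155 sites (28.0%) and the 2 control replicates at 44774 (23.6%). These counts set 1 library against 1, unlike the gained and lost sites, which set 2 against 2. With 1 list per line, chosen after seeing the data, the narrower lists gave 37666 gained and 17555 lost sites. The wider lists gave 28867 and 20517. Among all 4 libraries, 13730 sites were called by both wild-type libraries and 1 control library, and 9318 by both control libraries and 1 wild-type library. All 4 libraries called 95154 sites. Dropping a library loosens the definition: without wild-type replicate 1, wild-type replicate 2, control replicate 1 or control replicate 2 the gained sites numbered 18626, 27673, 14756 and 16360, and the lost sites 8736, 6712, 11334 and 10916.

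The CTCF motif was more frequent in gained than in lost sites. It was present in 1727 of 8693 gained sites (19.9%, 95% exact binomial interval 19 to 20.7), in 50 of 3065 lost sites (1.63%, 1.21 to 2.15), in 3.78% of the sites called by all 4 libraries and in 4.91% of all sites. These intervals cover counting of sites only, and sites of 1 library are not replicates. Perfect matches were present in 589 gained sites (6.78%) and 2 lost sites (0.0653%). Of sites with a perfect match 25.8% were gained, of sites with 1 mismatch 16.2%, and of sites without the motif 3.86%, against 4.58% of all sites. At equal list length, where gains and losses were near equal in number, the motif lay in 28.1% of gained and 1.67% of lost sites. Most gained sites lacked the motif in every one of these counts.

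Counted by library, the motif sites were called unequally in the lines. Of the 9325 motif sites, the wild-type libraries called 88.7% and 75.7%, the control libraries 49.4% and 49.1%, and the untreated control libraries 81.4% and 83.0%. Of the 2286 sites with a perfect match, the wild-type libraries called 91.0% and 76.7%, the control libraries 39.8% and 38.8%, and the untreated control libraries 85.0% and 85.3%. The remaining 180592 sites were called at 79.4% and 71.8% in the wild-type line and at 68.5% and 70.3% in the control line under IAA. These sites were admitted by the same 4 lists, and 3968 motif sites entered through wild-type peaks alone against 283 through control peaks alone. The gap between the lines is therefore partly fixed by how sites were admitted, and the percentages are given as a description.

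In each list, peaks whose summit lay at most 250 bp from a motif made up 5.40% and 5.22% in the wild-type line and 3.31% and 3.29% in the control line. The difference of 2.01 percentage points exceeded the root of the summed replicate variances, 0.128, and the groups did not overlap. The two-sided exact permutation p was 0.33 (n = 2 libraries per group), which is the smallest that 2 against 2 can give, so no such comparison here can pass 0.05. The same p, also after Benjamini-Hochberg adjustment, was obtained in all 7 exact permutation tests of the main setting. The untreated control line had 6.61% and 6.50%.

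**Figure D1:**
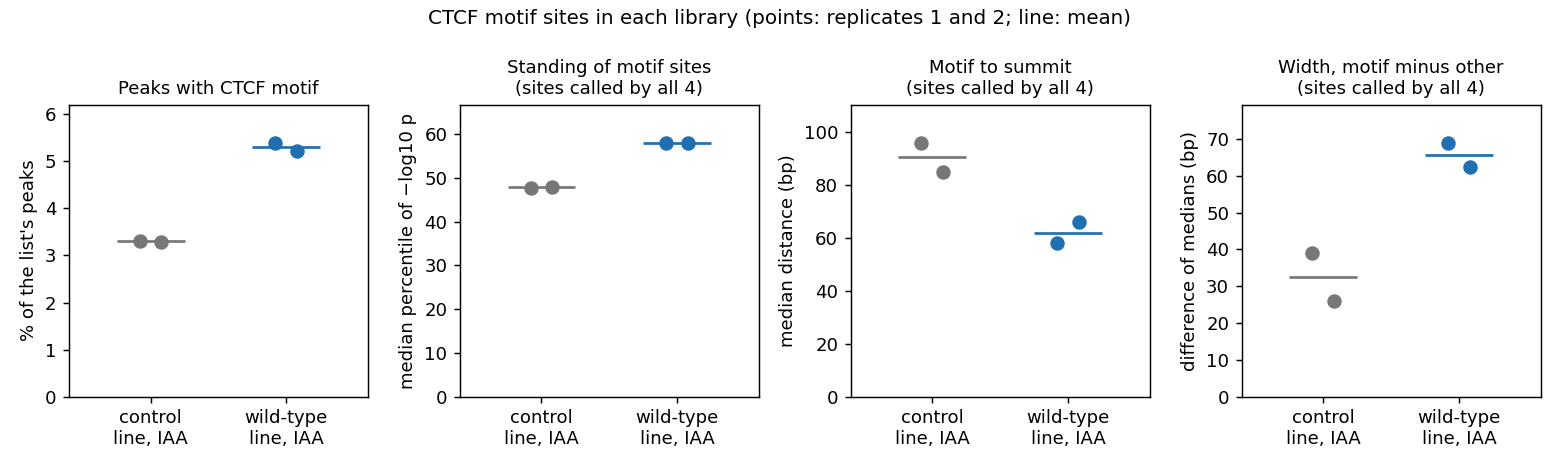
Each panel plots 1 measure of CTCF motif sites for the 2 control libraries (grey) and the 2 wild-type libraries (blue) under IAA, with a line at the mean. In each panel the libraries of the lines do not overlap, with motif shares of 5.40% and 5.22% against 3.31% and 3.29%.

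Motif sites also differed in rank within the open sites that all 4 libraries shared, a set that needs no call to be gained. Each library ranked the same 95154 sites by −log10 p, and the measure was the median percentile of the 3598 motif sites. It was 58.1 and 58.0 in the wild-type libraries and 47.8 and 47.9 in the control libraries. Motif sites thus stood above the middle of the set in the wild-type line and below it in the control line. The difference was 10.2 percentile points against a spread of 0.0636 (exact permutation p = 0.33, n = 2 per group). At the 705 shared sites with a perfect match the medians were 58.0 and 56.6 in the wild-type line and 38 and 38.1 in the control line. With up to 2 mismatches allowed the difference was 1.79 points. A rank is relative, so motif sites standing higher and other sites standing lower cannot be told apart.

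At these shared motif sites the summits lay closer to the motif in the wild-type line. The median distance from motif centre to summit was 58 and 66 bp in the wild-type libraries and 96 and 85 bp in the control libraries. Both wild-type values were below both control values, by 28.5 bp on average against a spread of 9.62 bp (exact permutation p = 0.33, n = 2 per group). The distance was shorter by 6 bp when only motifs within 50 bp were counted, and by 12.5 bp with up to 2 mismatches. Peaks at motif sites were wider than at other shared sites, by 69 and 62.5 bp in the wild-type libraries and by 39 and 26 bp in the control libraries. At perfect matches they were wider by 44 and 47 bp in the wild-type libraries, while the control libraries had differences of −14 and −26 bp, that is, narrower peaks than at other sites. With up to 1 mismatch the excess was 33.2 bp larger in the wild-type line against a spread of 10.3 bp (exact permutation p = 0.33, n = 2 per group). This last difference was the least firm: it was 13.5 bp when peaks had to cover 50% of a site, 9.50 bp among peaks with −log10 q of at least 10, and −5.00 bp with up to 2 mismatches.

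Within gained sites the motif sat near the centre. The centre of a site is the summit of the strongest peak that defined it, a wild-type peak at gained sites and a control peak at lost ones. Its median distance to the motif was 35 bp in gained motif sites (n = 1727), 57 bp in motif sites called by all 4 (n = 3598) and 121.5 bp in lost ones (n = 50). The motif lay within 50 bp of the centre in 77.6%, 46.3% and 26.0% of these. Gained motif sites thus held the motif closer to the summit than the shared and the lost ones.

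**Figure D2:**
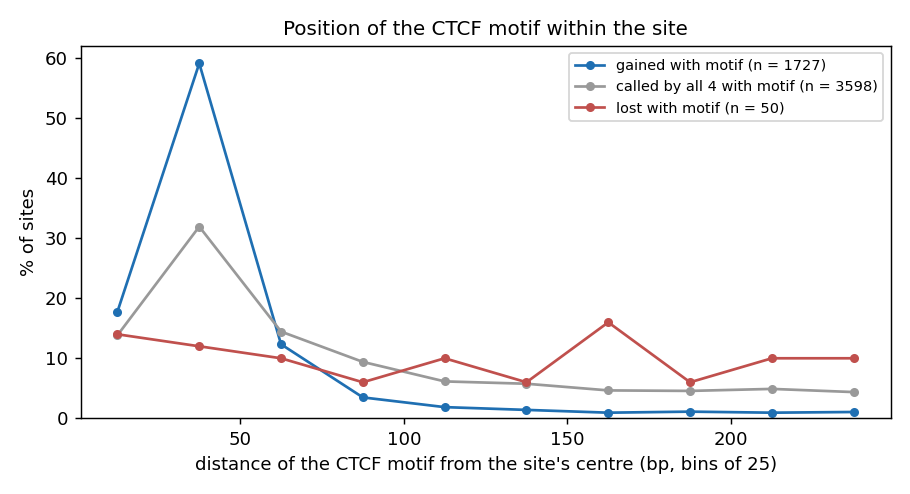
The horizontal axis gives the distance of the CTCF motif from the centre of the site in bp and the vertical axis the percentage of motif sites, for gained sites (blue), sites called by all 4 libraries (grey) and lost sites (red). Gained sites peak between 25 and 50 bp with a median of 35 bp, and the 50 lost sites show no peak.

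The strongest gained sites carried the motif most often. Ranked by the mean percentile in the 2 wild-type lists, 61% of the first 100 gained sites had the motif, 55.6% of the first 500 and 51.8% of the first 1000. In lost sites ranked by the control lists the shares were 2.00%, 1.80% and 2.00%. Peak strength itself was part of what chose these sites and is given only as a description. The weaker of the 2 wild-type peaks had a median −log10 q of 8.59 at gained sites with the motif and 4.42 at those without. At lost sites the weaker control peak had a median of 3.21, with 42.0% below 3, close to the lists' lower limit of 1.3. At sites called by all 4 libraries the weaker peak had a median of 18.3 in the wild-type and 17.4 in the control lists. Just outside the definition, at sites called by both wild-type libraries and 1 control library, that control peak had a median of 5.80.

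Gained motif sites were mostly open in the untreated control line. Both of its libraries called 83.5% of them, against 35.5% of gained sites without the motif, 19.7% of lost sites and 92.9% of the sites called by all 4. Over all motif sites the value was 75.2%, and over all sites 59.8%. The untreated libraries are of the same line as the depleted controls and took no part in the definition. The mutated line under IAA called 51.2% of gained motif sites with both libraries, with 72.3% and 60.0% in its replicates. The corresponding values were 31.3% of gained sites without the motif, 28.9% of lost sites and 94.5% of sites called by all 4. Over all motif sites it was 60.8% and over all sites 60.7%, so gained motif sites lay below the general share in the mutated line and above it in the untreated control line. The untreated control replicates called 89.1% and 90.4% of gained motif sites, and the difference between the untreated and the mutated line was not tested. Of the first 100 gained sites by strength, both untreated libraries called 97% and both mutated libraries 82%.

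The serum libraries share no sample with the comparison. Gained motif sites were called at 63.5% and 56.1% in the 0 h libraries and at 8.51% and 11.5% in the 12 h libraries. All motif sites were called at 58.8% and 52.8% at 0 h and at 31.2% and 35.1% at 12 h, and all sites at 31.6% and 27.8% and at 33.2% and 37.3%. At 0 h gained motif sites were thus near the share of any motif site, and at 12 h both libraries were below it. Gained sites without the motif were called at 15.7% and 12.8% at 0 h and at 10.7% and 14.1% at 12 h, so these ranges overlapped. Over all gained sites the values were 25.2% and 21.4% at 0 h and 10.2% and 13.6% at 12 h. This is 11.4 percentage points higher at 0 h against a spread of 3.6 (exact permutation p = 0.33, n = 2 per group). Lost sites moved the other way, with 12.7% and 10.6% at 0 h and 20.3% and 24.1% at 12 h, a difference of −10.6 points against a spread of 3.11 (exact permutation p = 0.33, n = 2 per group). Sites called by all 4 libraries had 50.2% and 45.2% at 0 h and 53.4% and 58.5% at 12 h, a difference of −8.31 points in the same direction as the lost sites, against a spread of 5.03 (exact permutation p = 0.33, n = 2 per group).

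The serum difference of the gained sites depended on which libraries defined them. It was 4.77 points without wild-type replicate 1, 4.11 without wild-type replicate 2, 5.66 without control replicate 1 and 4.79 without control replicate 2. It was 19.4 points with lists of equal length. The 12 h serum lists were also longer, at 71773 and 82502 peaks against 69153 and 59786 at 0 h, and the part of list length in these percentages was not tested. Both 0 h libraries and neither 12 h library called 33.5% of gained motif sites, 4.62% of gained sites without the motif, 0.261% of lost sites, 0.842% of sites called by all 4 and 1.52% of all sites. Among the motif sites called by all 4 libraries the share was 6.64%.

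**Figure D3:**
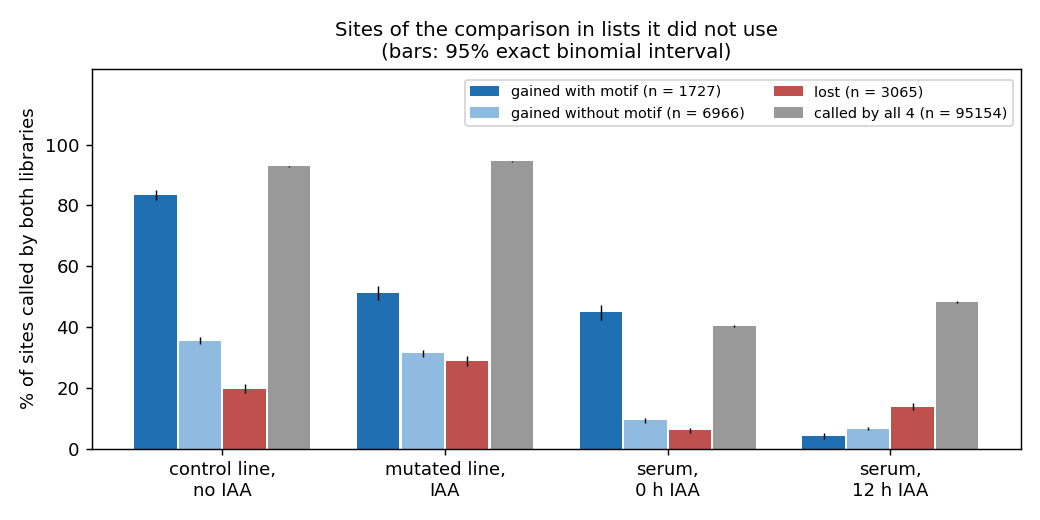
Bars give the percentage of sites called by both libraries of a group that took no part in defining them, with 95% exact binomial intervals, for gained sites with and without the CTCF motif, lost sites and sites called by all 4. Gained motif sites stand at 83.5% in the untreated control line, 51.2% in the mutated line, 44.8% in serum at 0 h and 4.11% in serum at 12 h.

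Gained sites without the motif were the larger class, 6966 of 8693, and were called in fewer other libraries. The median number of the other 20 libraries calling a site was 4 for them, 11 for gained motif sites, 4 for lost sites, 13 for sites called by all 4 and 7 for all sites. No other library called 371 of them (5.33%) and 10 of the gained motif sites (0.579%), against 6.49% of lost sites and 6.27% of all sites.

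Most gained and lost sites lay away from promoters. A promoter site had its centre within 500 bp of an annotated transcription start. Promoters held 3.64% of gained and 5.22% of lost sites, against 17.5% of sites called by all 4 and 10.8% of all sites. Introns held 50.2% and intergenic DNA 39.5% of gained sites, and 51.8% and 34.9% of lost ones. Of all promoter sites 1.54% were gained and 0.780% lost, and of intergenic sites 5.16% and 1.61%. The motif went with gains in every class. Of motif sites, 5.31% were gained at promoters (53 of 999), 20.5% in introns (809 of 3950) and 20.1% in intergenic DNA (747 of 3710). All 4 libraries called 79.8% of the promoter motif sites and 32.2% of the intronic ones. At promoters of protein-coding genes 119 of 15803 sites were gained (0.753%) and 79 lost (0.500%).

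**Figure D4:**
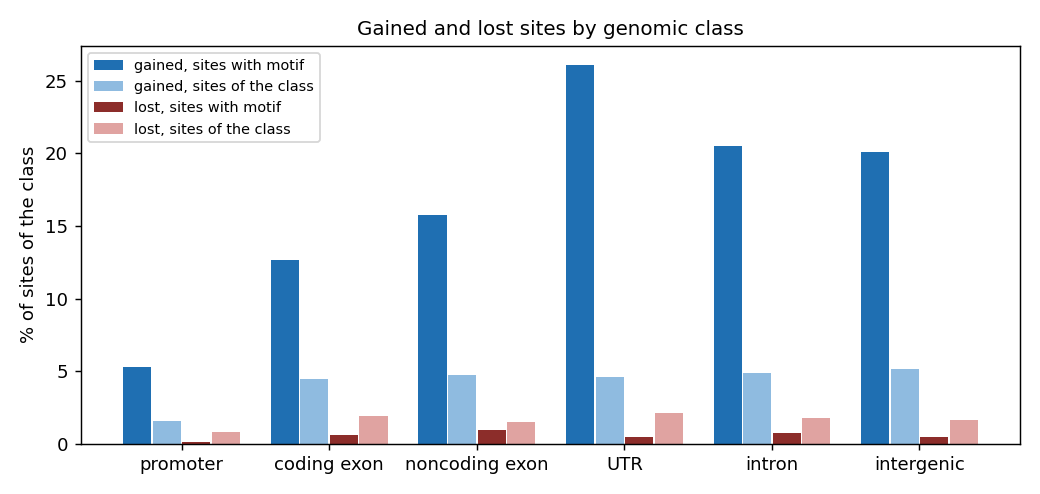
Bars give the percentage of sites of each annotation class that were gained (blue) or lost (red), for all sites of the class and for those with the CTCF motif. Among motif sites 5.31% of promoter sites, 20.5% of intronic and 20.1% of intergenic sites were gained, and in no class were more than 0.926% lost.

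Base composition and other motifs were read in the same sites. Median GC content was 47.9% in gained, 49.1% in lost and 50.1% in shared sites, and 49.1% over all sites. A panel of 13 short motifs, searched on both strands over 250 bp on either side of the centre, gave these values. The KLF and SP motif GGGCGG occurred in 11.4% of gained, 15.8% of lost, 27.7% of shared and 20.4% of all sites. The AP-1 motif TGANTCA occurred in 16.4% of gained and 14.7% of lost sites, with 15.5% over all. The ESRRB motif TCAAGGTCA occurred in 2.05% of gained and 3.07% of lost sites, with 2.73% over all. The ZIC motif CAGCAGG, which can overlap the CTCF core, occurred in 27.9% of gained sites with the CTCF motif, 19.5% of gained sites without it, 31.5% of all motif sites and 21.0% of all sites. ESRRB, POU5F1, KLF and SP proteins bind such motifs in stem cells, and the POU5F1 octamer ATGCAAAT was present in 3.66% of gained, 3.36% of lost and 4.20% of all sites.

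Sites are named by the protein-coding gene with the nearest start, which gives a position and no target. Besides those printed above, the strongest gained motif sites lay near Htr1b, which encodes a serotonin receptor, at chr9:81626844-81627344, and near 4930564D02Rik at chr3:105114220-105114720. The Htr1b site held a perfect match and stood at percentile 86.4 and 77.9, and 6 of the other 20 libraries called it. The 4930564D02Rik site stood at percentile 84.4 and 79.5 with calls in 11 others.

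The strongest gained site of all had no CTCF motif and was called in no other library. It lay at chr13:66680705-66681205, at a promoter of the long noncoding RNA gene Gm40988 and 224 kb from the nearest protein-coding start, that of Gm10767. Its peak stood at percentile 99.8 and 97.7, with −log10 q of 252 and 129 in the wild-type libraries, and neither the untreated nor the mutated line had a peak there. The next gained sites without the motif lay near Cckar, a cholecystokinin receptor gene, at percentile 74.3 and 99.3, and in an intron near Acod1, which encodes the itaconate-producing enzyme, at 83.3 and 83.0. They were followed by sites near Adgre1, the gene of the macrophage antigen F4/80, at 86.4 and 78.7, and Atp5j, a subunit gene of the mitochondrial ATP synthase, at 75.4 and 89.6. These were called by 16, 18, 15 and 14 of the other 20 libraries, unlike the site at Gm40988.

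The strongest lost sites were weaker and less even between replicates. The site in an intron of the annotation near Cspp1, a centrosomal protein gene, stood at percentile 99.1 in control replicate 1 and 35.9 in replicate 2. The site near Tceal9 in a coding exon stood at 86.9 and 45.0, and that near Gm49496 at 92.4 and 30.5. That near Anln, which encodes anillin of the cytokinetic ring, stood at 80.8 and 41.4. Control replicate 1 ranked each of these 4 above replicate 2. Lost motif sites near 2900026A02Rik, Chrna9, Phyhipl and Dmrt1 had percentiles between 29.2 and 57.0, and their motifs lay 200, 185, 24 and 233 bp from the centre. The Phyhipl site lay 238 kb from the start of that gene. The motif of the lost Dap site lay 76 bp from the centre. Of the 5 strongest gained motif sites the motif lay 18 to 36 bp away in 4, and at 130 bp near Alg14, farther out than at Dap.

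At promoters of protein-coding genes, the strongest gained sites were those of Adprhl1, Gm14444, Olfr20, Lgi4 and Chrdl2. Lgi4 encodes a secreted ligand of glial cells and Chrdl2 a chordin-like BMP antagonist. The Adprhl1 site held a perfect CTCF match 46 bp from the centre, stood at percentile 75.5 and 73.2, and was called by 2 untreated and 2 mutated libraries. The Lgi4 site held a match with 1 mismatch and stood at 65.3 and 69.5, and the other 3 had none. The strongest lost promoter sites were those of Cntnap4, Ranbp3l, Hnrnpr, 2610528J11Rik and Gdap1l1, none with the motif. Hnrnpr, which encodes an RNA-binding protein, stood at percentile 93.6 in control replicate 1 and 13.5 in replicate 2. Its window lay 488 bp from the start, near the edge of what was counted as promoter.

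Promoter sites of the gene lists are read beside those of all protein-coding genes, of which 0.753% were gained and 0.500% lost, so lists of this size hold few or none at the general share. Naive pluripotency factors, which hold the stem cell state, had 0 gained and 0 lost of 23 promoter sites, all called by all 4 libraries. Within 50 kb of their starts 14 of 557 sites (2.51%) were gained and 7 (1.26%) lost, against 4.21% and 1.64% of sites within 50 kb of any protein-coding start. Of 23 motif sites there 3 were gained, beside 1211 of 6823 motif sites within 50 kb of any protein-coding start. These 3 were named after their values were seen. One lay 9897 bp from Dppa5a at a mean percentile of 77.3 and was called by 15 of the other 20 libraries. Another lay 15043 bp from Fgf4, the gene of an autocrine growth factor of stem cells, at 47.3. The one nearest Pou5f1, at 40223 bp, stood at only 2.90.

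The list with genes of cohesin and CTCF itself also held others, such as Ctcfl, Patz1, Zfp143 and Yy1. This list had 0 gained and 0 lost of 21 promoter sites, with 8 gained (2.51%) and 5 lost (1.57%) of 319 sites within 50 kb. Of these gained sites 2, named after their values were seen, lay in coding exons of Ctcf at chr8:105663753-105664253 and chr8:105679859-105680359. They stood at mean percentiles of 45.0 and 46.2. Both libraries of the mutated line called each of them and neither was called by both untreated libraries. Reads from a CTCF transgene and opening of the endogenous exons cannot be told apart in these lists.

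Lineage regulators had 0 gained and 1 lost of 33 promoter sites, with 16 gained (3.97%) and 7 lost (1.74%) of 403 sites within 50 kb. The lost promoter site was that of Gata2, a factor of blood and trophoblast development, at chr6:88197817-88198317 with a mean percentile of 7.26. Imprinted genes, expressed from 1 parental allele, had 2 gained and 0 lost of 42 promoter sites, with 21 gained (4.75%) and 7 lost (1.58%) of 442 sites within 50 kb. The gained promoters were those of Zim1, at a mean percentile of 47.1 and called by 16 of the other 20 libraries, and Dlk1, which encodes a Notch-like protein, at 25.1 and called by 4. Neither held the CTCF motif.

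Immediate early and stress genes, which respond within minutes to growth factors or damage, had 0 gained and 0 lost of 30 promoter sites. Within 50 kb 20 of 533 sites (3.75%) were gained and 16 (3.00%) lost. Of the 32 motif sites there 11 were gained and 0 lost, beside 1211 gained and 33 lost of 6823 motif sites within 50 kb of any protein-coding start. Chosen after their values were seen, the nearest lay 858 bp from Gadd45b, 1787 bp from Cdkn1a, the gene of the cell cycle inhibitor p21, and 1918 bp from Myc. Their mean percentiles were 28.2, 28.2 and 47.9.

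Clustered protocadherins, whose alternative promoters are chosen with CTCF and cohesin, had 1 gained and 0 lost of 33 promoter sites, that of Pcdhgb2 at a mean percentile of 48.7 and called by 11 of the other 20 libraries. Within 50 kb 8 of 112 sites (7.14%) were gained and 0 lost, beside 4.21% and 1.64% for any protein-coding start. Only 1 of these gained sites held the CTCF motif, and the Pcdhgb2 site did not. Of the 8 motif sites there 1 was gained, beside 1211 of 6823 within 50 kb of any protein-coding start. Genes of the 2-cell stage had 1 gained of 2 promoter sites, that of Usp17la, and 7 gained of 51 sites (13.7%) within 50 kb, beside the same 4.21%, none with a CTCF motif. Many of them are near-identical copies, so the assignment of reads among them is uncertain. Hox clusters had 0 gained and 0 lost of 36 promoter sites, with 5 gained and 5 lost (2.81% each) of 178 sites within 50 kb.

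The Firre locus on chromosome X was also read, chosen after its values were seen. Firre is a long noncoding RNA gene with tandem repeats that bind CTCF. Of 34 sites within 100 kb of its start, 8 were gained, 0 lost and 10 called by all 4 libraries, beside 4.58% gained and 1.61% lost over all sites. Both untreated control libraries called 7 of the 8 gained sites and both mutated libraries 4, beside 45.0% and 35.3% of all gained sites. None of the 34 held the CTCF motif with up to 1 mismatch. With up to 2 mismatches 9 of the 34 and 4 of the 8 gained sites held it, beside 36.3% of all gained and 15.0% of all lost sites. Control replicate 1 called 23 sites and replicate 2 called 11, against 25 in each wild-type library. The control replicates thus differed more from each other at this locus than the wild-type replicates did.

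Chromosomes differed in the balance of gains and losses. Chromosome 6, singled out after its values were seen, had 405 gained (3.65%) and 256 lost sites (2.30%), which is 1.58 gained per lost. The other autosomes had between 1.93 on chromosome 19 and 3.85 on chromosome 17. Chromosome 6 held 6.13% and 6.11% of the peaks of the depleted control libraries and 6.24% and 6.13% of the untreated ones. It held 5.80% and 5.83% in the wild-type and 5.77% and 5.76% in the mutated line. On chromosome 6 the control line was higher than both overexpression lines with and without IAA. Chromosome 8, with 2.08 gained per lost, held 5.38% and 5.42% in the depleted and 5.43% and 5.36% in the untreated control libraries. It held 5.27% and 5.28% in the wild-type and 5.33% and 5.24% in the mutated line, also lower than in the control line. The part of these line differences in the gained and lost sites was not tested. On chromosome 6, 15.8% of motif sites and 3.07% of other sites were gained.

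**Figure D5:**
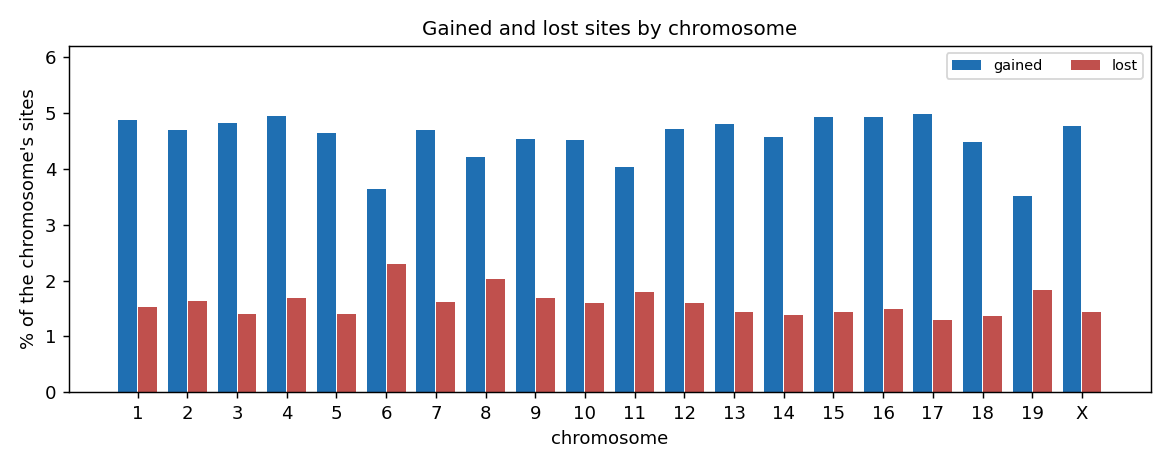
Bars give the percentage of each chromosome's sites that were gained (blue) or lost (red) in the wild-type line; chromosome Y, with 56 sites, is left out. Chromosome 6 stands at 3.65% gained and 2.30% lost, and chromosome 17 at 4.99% gained and 1.3% lost.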

How the data were processed

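One narrowPeak list per library was used. Per the submitters' processing notes, Trim Galore, Bowtie2, MACS2 and deepTools were named with build mm10. Their versions and roles are not given in the sources used here. The deposited −log10 p and −log10 q are the authors' values per peak and served only to rank or filter peaks within a list. No counts were used, so no count model was run.

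Summits of the 4 lists were ranked by percentile of −log10 p, and windows of 501 bp (sites) were placed from the best downwards without overlap. A library called a site when a peak overlapped it by 1 bp. The CTCF consensus of 14 letters was searched on both strands with at most 1 mismatch in GRCm38. Classes and starts came from GENCODE vM21 basic. Per-library measures were compared by exact permutation, two-sided, with 7 tests adjusted together. Intervals were Clopper-Pearson at 95%.

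Named sites were the 5 with the highest mean percentile of each kind: gained or lost, with or without the motif, and at protein-coding promoters, plus list members with a gained or lost promoter. One of the named lost sites is not reported here. Sites and gene lists were chosen with earlier results of these data known. Python 3.11.15, numpy 2.4.6, pandas 2.3.3 and scipy 1.17.1 were used, and the steps were tested on simulated data. Alternatives covered list length, threshold, overlap, site definition, motif setting, single libraries, replicate pairing and peak width.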

Additional observations from a re-analysis of the deposited data

How the results depend on the processing

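Gained sites numbered 5363 with lists of equal length, 5603 among peaks with −log10 q of at least 10, 3507 when peaks had to cover 50% of a site, and 14756 to 27673 when 1 library was left out. Lost sites numbered 5212, 1274, 4226 and 6712 to 11334 under these settings, and merged intervals gave 8348 gained and 2616 lost. Alternatives chosen after seeing the data kept only the narrower or only the wider list of each line, which gave 37666 and 28867 gained and 17555 and 20517 lost sites. Fewer lists have to agree in those settings and without 1 library. The motif share of gained sites was 28.1% at equal length, 24.5% at the stricter threshold, 21.0% with 50% cover, 12.2% to 15.0% without 1 library, and 10.6% and 9.80% for the narrower and wider lists. It was 6.78% without mismatch, 36.3% with up to 2 and 14.2% within 50 bp, against 0.0653%, 15.0% and 0.326% of lost sites. It exceeded that of lost sites in each.

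The motif share per list differed by 0.714 to 2.47 points over 13 alternatives and the standing of motif sites by 1.79 to 19.2 points over 14, all with the same direction. The width difference reversed, to −5.00 bp, with up to 2 mismatches. The serum difference of gained sites fell to 1.92 and 1.76 points for the narrower and wider lists (exact permutation p = 0.667). Same-numbered libraries did not deviate together (r = −0.138 over 95154 site ranks). The narrower lists carry different replicate numbers in the lines, so r cannot tell whether libraries of equal number shared a batch. The replicate block left 2.01 and 10.2 points with an exact sign permutation p of 0.5, the smallest possible, and so did the crossed pairing, added after seeing the data. Of the 15 lost sites ranked first 5 kept their status at the stricter threshold. With 50% cover 5 of 15 gained and 5 of 15 lost sites kept it. The gained sites near Alg14 and at Gm40988, strongest of their kinds, were among those that did not. Equal length cannot change the status of these strongest sites, nor the stricter threshold that of the gained ones. Depth is unknown, so lists of unequal sensitivity limit every count of gained and lost sites.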
